A study of Mus musculus with 12 samples.

Results

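Markers of the nuclei that make up the amygdala, 10 genes of the 47729 in the count table, were taken from it by symbol through their Ensembl identifiers. Of these, 5 mark the glutamatergic neurons of the basolateral complex and of other pallial tissue (Rspo2, Slc17a7, Neurod2, Neurod6 and Tbr1). Slc17a6 marks glutamatergic neurons that load their vesicles with a different transporter. The other 4 mark GABAergic neurons of the central nucleus and of further subpallial origin (Prkcd, Calcrl, Isl1 and Lhx6). All 10 had reads in all 12 libraries and all 10 entered every test.

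The libraries were made from the bilateral amygdala of 12 female C57/BL6 mice, 1 library per mouse, all of 1 strain and with no treatment that set groups apart. The mice were tested on the elevated plus maze at 9 weeks of age, in the light/dark box at 10 weeks and in the three-chamber social test at 11 weeks, before rapid decapitation. The labels give a predicted anxiety state to 11 mice, with 3 less anxious (mice 3, 7 and 12), 4 anxious (mice 1, 4, 8 and 11) and 4 more anxious (mice 2, 6, 9 and 10), and none to mouse 5. The paper names mouse 5 an outlier of its principal component analysis and left it out of later steps. Here it is part of all values over 12 libraries. A state does not describe each behavior score of a mouse. More anxious mouse 6 had the highest time in the light (46.6%), distance in the light (41.9%) and open-arm time (29.2%) of the 12 mice. More anxious mice 2, 9 and 10 had open-arm times of 2.33%, 4.30% and 3.25%, below all other mice. The study cut these states from the second principal component of this same expression data, so a difference between states is not independent evidence that a gene follows anxiety, while the behavior scores were measured apart from expression. The tissue was cut from a vibratome slice by distance from the midline and the base of the brain, so each piece can hold several nuclei and some neighboring tissue.

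The amygdala is built from parts of different developmental origin. The basolateral complex is a cortex-like structure of pallial origin whose principal neurons release glutamate and express T-box and NeuroD transcription factors. The central nucleus lies beside it, arises from the subpallium like the striatum, and consists mainly of GABAergic neurons that send the output of the amygdala to the hypothalamus and brainstem. The markers of the 2 kinds of nucleus were therefore chosen as a possible readout of what each dissection contained. In bulk tissue, fewer cells of a type and less RNA per cell cannot be told apart. The markers of a set also varied little together over the mice with a state. The median Pearson correlation was 0.214 within the basolateral set, 0.00398 within the central set and 0.0524 between the sets. Whether a marker follows the amount of its nucleus was not tested.

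Totals ran from 31745630 to 45142355 estimated counts in the 11 mice with a state, with 26378 to 28196 genes detected, and mouse 5 had 32682574 counts over 23768 genes. Levels are given as CPM, counts relative to the library total, scaled between libraries by the trimmed mean of M-values (TMM). The lowest count of any marker was 14, for Isl1 in mouse 8, with an exact 95% Poisson interval of 7.65 to 23.5 that covers counting error only. The lowest count of each other marker was 129 or more. Libraries also differed in how far they favored GC-rich transcripts. This GC lean, the median log2 deviation of the genes with at least 55% GC minus that of the genes with at most 45.9% GC, ran from -0.2905 in mouse 3 to 0.2484 in mouse 9 among the 11 mice and was -0.3663 in mouse 5.

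Levels per kb of exon, which allow genes to be compared, separated the markers by more than 2 orders of magnitude. Slc17a7, the vesicular glutamate transporter VGLUT1 of cortical and basolateral neurons, averaged 180.5 ± 37.2 CPM per kb (SD, n = 12), above 98.9% of the genes with a mean of at least 1 CPM. Slc17a6, which encodes VGLUT2, followed at 14.2 ± 3.69 CPM per kb. The mean of Slc17a7 was 12.7 times that of Slc17a6, and Slc17a7 was the higher in 12 of 12 mice. Neurod2 at 14.1 ± 3.65 CPM per kb and Neurod6 at 13.9 ± 4.4 CPM per kb (SD, n = 12 each) came next. The steps from Slc17a6 to Neurod2 and from Neurod2 to Neurod6 did not pass an exact sign-flip permutation test (two-sided, p = 0.917 and 0.841). Neurod6 was not tested against Slc17a6.

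The remaining order was Tbr1, Lhx6, Prkcd, Rspo2, Calcrl and Isl1. Tbr1, a T-box factor of pallial glutamatergic neurons, averaged 10.8 ± 3.14 CPM per kb, and the step from Neurod6 to Tbr1 did not pass an exact sign-flip permutation test over the 12 mice (two-sided, p = 0.0659, 0.0989 adjusted over the 9 steps of the order). Lhx6, a LIM-homeodomain factor of neurons from the medial ganglionic eminence, averaged 4.71 ± 0.964 CPM per kb and was below Tbr1 in 12 of 12 mice. Prkcd, the protein kinase C delta of a class of central amygdala neurons, averaged 2.39 ± 0.844, and Rspo2, a secreted enhancer of WNT signaling that labels a class of basolateral principal neurons, 2.35 ± 0.765 CPM per kb (SD, n = 12 each), a difference within the spread between mice.

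At the low end were Calcrl, the receptor for CGRP that receives the parabrachial input of the central nucleus, at 1.55 ± 0.503 CPM per kb, and Isl1, a LIM-homeodomain factor of striatal and central amygdala neurons, at 0.435 ± 0.356 CPM per kb (SD, n = 12 each). Rspo2 was above Calcrl in 10 of 12 mice (exact sign-flip permutation test, two-sided, p = 0.00879, 0.0158 adjusted) and Calcrl was above Isl1 in 12 of 12. The steps held by all 12 mice had p = 0.000488, the smallest value this exact permutation test can give, and an adjusted p of 0.0011. Since the order was read from the same 12 libraries, these tests say only which neighbors in it were separated.

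**Figure D1:**
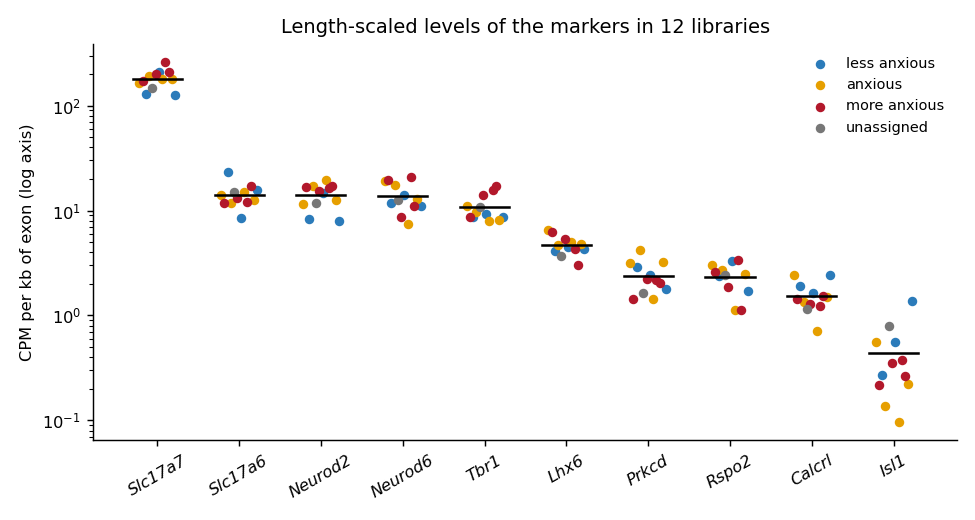
Levels of the 10 markers in CPM per kb of exon (log axis), with 1 point per library colored by predicted anxiety state and a black line at the mean of the 12 libraries. Slc17a7 stands at 180.5 on average, Slc17a6, Neurod2 and Neurod6 lie together near 14, and Isl1 at 0.435 has the widest spread.

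The markers varied more between mice than most genes. Over the 12 libraries, the median coefficient of variation of the 15890 genes with a mean of at least 1 CPM was 15.1%. The 10 markers lay between 20.5% for Lhx6 and 81.9% for Isl1, each above at least 70.5% of these genes, without matching on expression level. Isl1 was above 99.2% of them. From the lowest to the highest library the ratio was 2.04 for Slc17a7, 2.12 for Lhx6, 2.18 for Tbr1 and 14.3 for Isl1, and between 2.48 and 3.42 for the other 6 markers.

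Among the basolateral markers, Slc17a7 (chromosome 7, 45163949 to 45176142, plus strand, GRCm38) stood at 693, 1118 and 687 CPM in the less anxious mice 3, 7 and 12. It was at 888, 1038, 968 and 968 CPM in the anxious mice 1, 4, 8 and 11, and at 918, 1077, 1403 and 1120 CPM in the more anxious mice 2, 6, 9 and 10. The less anxious group holds the 2 lowest of the 12 libraries and also 1 of the 4 highest, so that the groups overlap. The difference of more anxious from less anxious mice was 0.44 on the log2 scale (standard error 0.17, edgeR adjusted p = 0.476). It was 0.75 without mouse 7 and 0.26 without mouse 9.

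Tbr1 (chromosome 2, 61802930 to 61814114, plus strand) was at 47.6, 50.7 and 47.4 CPM in the less anxious mice and at 60.6, 52.8, 43.6 and 44.3 CPM in the anxious mice. In the more anxious mice it was at 47.8, 76.6, 85.6 and 94.9 CPM. The 3 highest libraries of the 12 are thus more anxious mice 6, 9 and 10, while mouse 2 lies within the range of the other groups. The log2 difference was 0.67 between more and less anxious mice (standard error 0.20, edgeR adjusted p = 0.342) and 0.58 between more anxious and anxious mice (standard error 0.18, edgeR adjusted p = 0.999).

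Neurod2 and Neurod6 encode related basic helix-loop-helix factors of pallial glutamatergic neurons that bind E-box motifs. Neurod2 (chromosome 11, 98325415 to 98329648, minus strand) was at 25.9, 45.8 and 24.7 CPM in the less anxious mice, at 36.5, 53.3, 61.2 and 39.6 CPM in the anxious mice and at 52.9, 48.6, 51.2 and 53.4 CPM in the more anxious mice. All 4 more anxious mice were above all 3 less anxious mice. The log2 difference was 0.65 (standard error 0.16, edgeR adjusted p = 0.201), and that of anxious from less anxious mice was 0.48 (standard error 0.16, edgeR adjusted p = 0.987).

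Neurod6 (chromosome 6, 55677822 to 55681263, minus strand) had another pattern over the same mice. It was at 25.4, 30.3 and 23.5 CPM in the less anxious mice, at 41.3, 37.7, 16.0 and 27.9 CPM in the anxious mice and at 41.6, 18.5, 44.9 and 23.7 CPM in the more anxious mice. Mouse 8, highest of the 12 for Neurod2, was lowest for Neurod6, and the ratio of Neurod6 to Neurod2 ran from 0.261 in mouse 8 to 1.13 in mouse 1. The upstream sequences of this pair are printed because the genes code for related factors and yet had different levels over the mice (r = 0.0373, permutation p = 0.913, 0.991 adjusted over the 45 marker pairs, rho = -0.0455, permutation p = 0.903, 0.945 adjusted, and r = -0.36 without mice 3 and 12), with that of Isl1, the most variable marker, for comparison. They are the 250 bases before the RefSeq start (GRCm38.p6), 5′ to 3′ on the gene's own strand, with the E-boxes CAGATG and CAGCTG in capitals.

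Neurod2, chr11:98329646-98329895, minus strand: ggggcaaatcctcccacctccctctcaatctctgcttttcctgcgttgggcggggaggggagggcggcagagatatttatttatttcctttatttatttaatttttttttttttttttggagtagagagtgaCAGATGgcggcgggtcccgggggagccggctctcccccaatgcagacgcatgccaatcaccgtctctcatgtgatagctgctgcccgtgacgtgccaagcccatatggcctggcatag

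Neurod6, chr6:55681264-55681513, minus strand: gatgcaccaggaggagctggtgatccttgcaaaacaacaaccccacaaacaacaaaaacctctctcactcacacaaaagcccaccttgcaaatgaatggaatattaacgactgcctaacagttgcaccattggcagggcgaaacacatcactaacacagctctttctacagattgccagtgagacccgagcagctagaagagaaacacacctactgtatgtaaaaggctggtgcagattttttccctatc

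Isl1, chr13:116309689-116309938, minus strand: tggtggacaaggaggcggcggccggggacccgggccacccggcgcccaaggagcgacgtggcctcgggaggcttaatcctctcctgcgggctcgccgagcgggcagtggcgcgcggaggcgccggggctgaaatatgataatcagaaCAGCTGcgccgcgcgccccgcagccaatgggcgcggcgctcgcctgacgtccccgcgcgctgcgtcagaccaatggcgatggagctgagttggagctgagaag

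The Neurod2 window holds 1 CAGATG, starting 118 bases before the start, the Isl1 window 1 CAGCTG, starting 103 bases before it, and the Neurod6 window neither. CAGATG or its complement CATCTG is in 14.4% and the palindrome CAGCTG in 13% of the 32851 upstream windows of that length in the table, and 25.5% hold at least 1 of them. The GC content is 52.8% in the Neurod2 window, 46% in that of Neurod6 and 71.2% in that of Isl1. RefSeq gave 13 windows for 9 of the 10 markers and none for Rspo2. A match of letters is a description and not a measured site.

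Rspo2 (chromosome 15, 43020794 to 43170826, minus strand) was at 12.1, 17.0 and 8.77 CPM in the less anxious mice, at 15.5, 13.7, 5.72 and 12.7 CPM in the anxious mice and at 13.4, 9.52, 17.4 and 5.71 CPM in the more anxious mice. The highest and the lowest library, of mice 9 and 10, are both from more anxious mice, and the 3 groups span nearly the same range. The log2 difference of more from less anxious mice was -0.11 (standard error 0.43) for Rspo2 and 0.32 (standard error 0.37) for Neurod6. Without mouse 7 these were 0.53 and 0.76, and without mouse 10 the value for Rspo2 was 0.13, so that its sign changed on leaving out either library.

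Slc17a6 (chromosome 7, 51622006 to 51671119, plus strand) had both its extremes among the less anxious mice, at 126, 45.5 and 85.4 CPM in mice 3, 7 and 12. The other groups lay between them, at 75.6, 63.6, 81.3 and 68.1 CPM in the anxious mice and 63.2, 71.7, 64.4 and 92.0 CPM in the more anxious mice. The ratio of Slc17a7 to Slc17a6 accordingly was 5.50 in mouse 3, the lowest, and 24.6 in mouse 7, the highest, with 8.04 to 21.8 in the other 10 libraries. The log2 difference of more from less anxious mice was -0.09 (standard error 0.27), and it was 0.17 without mouse 3, -0.51 without mouse 7 and 0.33 with the GC lean as a further covariate.

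Among the central nucleus markers, Prkcd (chromosome 14, 30595354 to 30626210, minus strand) was at 16.0, 13.6 and 9.93 CPM in the less anxious mice, at 17.4, 23.4, 7.99 and 17.9 CPM in the anxious mice and at 7.98, 12.4, 12.0 and 11.3 CPM in the more anxious mice. The anxious group holds the 3 highest libraries of the 12, of mice 4, 11 and 1. Its log2 difference of more anxious from anxious mice was -0.61 (standard error 0.29, edgeR adjusted p = 0.999) and -0.33 without mouse 4. Mice 4, 11 and 1 were also the 3 libraries with the most RNA of the 6 anterior pituitary genes, at 53.8, 11.4 and 5.16 summed CPM against 1.39 to 4.09 in the other 9 libraries, and the part of this in the Prkcd result was not tested.

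Calcrl (chromosome 2, 84330626 to 84425411, minus strand) was at 9.35, 7.95 and 12.0 CPM in the less anxious mice, at 11.7, 6.5, 3.5 and 7.38 CPM in the anxious mice and at 7.02, 6.21, 5.99 and 7.49 CPM in the more anxious mice. All 4 more anxious mice were below all 3 less anxious mice, with a log2 difference of -0.43 (standard error 0.26, edgeR adjusted p = 0.702), and -0.27 without mouse 9. Calcrl also encodes the receptor that adrenomedullin uses on endothelial cells. All 6 endothelial genes measured had a log2 difference below 0 as well, with a summed level of 76.4 to 97.2 CPM against 107 to 156 CPM in the less anxious mice, and the part of this in the Calcrl difference was not tested.

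Isl1 (chromosome 13, 116298281 to 116309689, minus strand) was at 1.07, 2.20 and 5.44 CPM in the less anxious mice, at 2.21, 0.548, 0.379 and 0.877 CPM in the anxious mice and at 0.854, 1.4, 1.5 and 1.06 CPM in the more anxious mice. Mouse 12 stood above all other libraries, followed by mouse 5 without a state at 3.11 CPM. The log2 difference from less anxious mice was -1.18 for the more anxious (standard error 0.62) and -1.50 for the anxious mice (standard error 0.62, edgeR adjusted p = 0.987). Without mouse 12 these were -0.46 and -0.75.

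Lhx6 (chromosome 2, 36081953 to 36105408, minus strand) was at 19.9, 21.7 and 20.7 CPM in the less anxious mice, 31.1, 22.5, 23.9 and 23.0 CPM in the anxious mice and 29.7, 25.9, 20.8 and 14.7 CPM in the more anxious mice. The less anxious mice lay within the range of the more anxious mice. Its log2 difference was 0.10 (standard error 0.20), and -0.04 without mouse 2. In mouse 5 all 10 markers lay inside the range of the other 11 mice, with 801 CPM for Slc17a7, 9.02 CPM for Prkcd and 17.7 CPM for Lhx6.

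**Figure D2:**
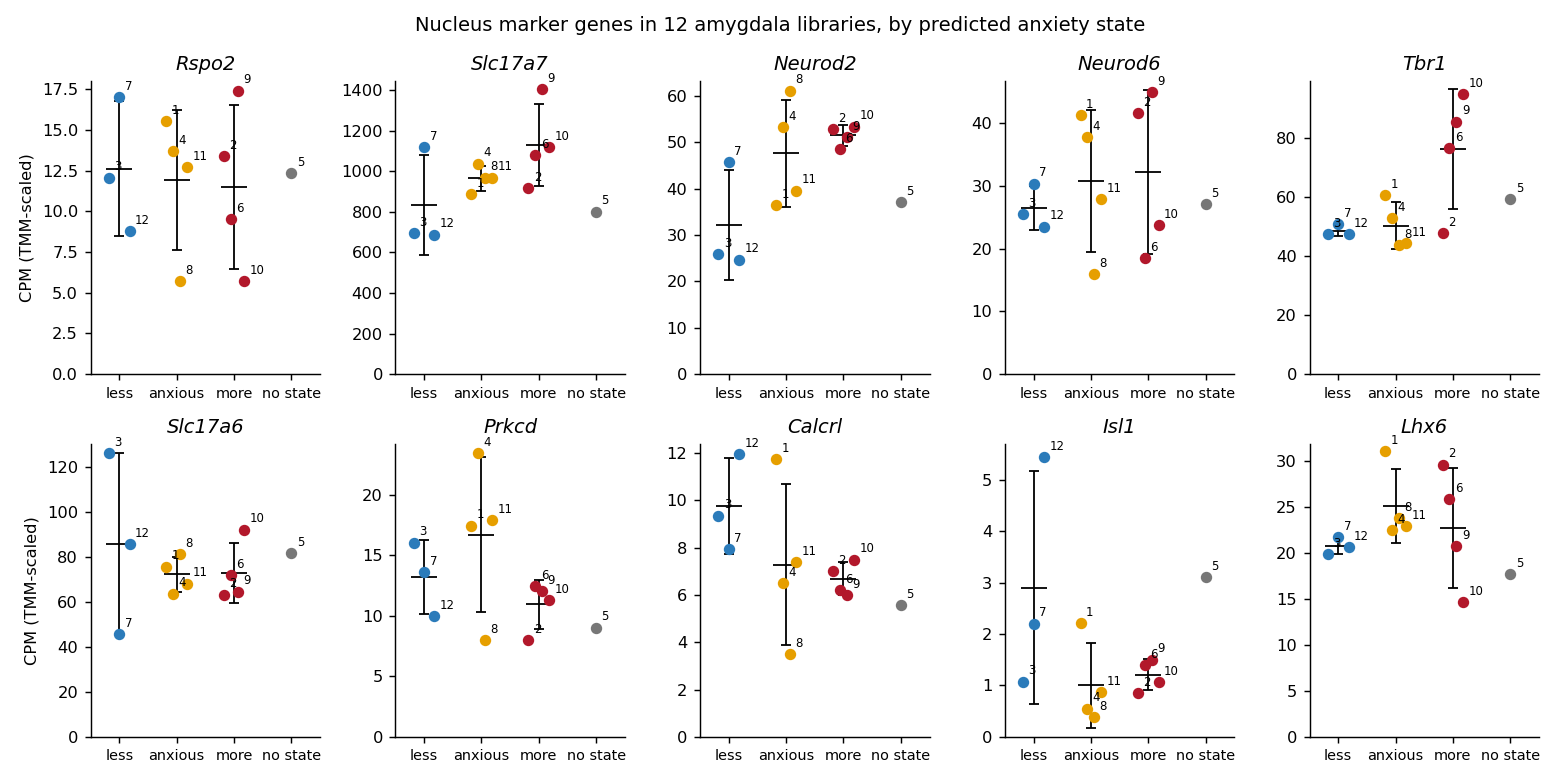
CPM of each marker in the 12 libraries, with 1 point per mouse labeled by its number, grouped by predicted state (less anxious, anxious, more anxious, no state), and a bar at the group mean ± SD. Neurod2 has all more anxious mice above all less anxious mice, Calcrl has them all below, and the high Isl1 mean of the less anxious group comes from mouse 12 at 5.44 CPM.

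In no comparison of the states did a marker pass at an adjusted p of 0.05 in edgeR (quasi-likelihood test, Benjamini-Hochberg over 26963 genes, first principal component as covariate). For any difference between the 3 states, 0 of 10 markers were called (0.00742% of all genes), 2 had an unadjusted p under 0.05, Neurod2 and Tbr1 (6.35% of all genes), and DESeq2 called 1, Tbr1 (1.36%). Between more and less anxious mice, 0 were called (0.0445%), 3 had an unadjusted p under 0.05 (8.83% of all genes), and DESeq2 called 1, Neurod2 (1.63%). The 3 were Slc17a7, Neurod2 and Tbr1, with a difference above 0 (5.21% of all genes in that direction), and 0 markers were among those below 0 (3.62%). Shares given for DESeq2 are of the genes to which it gave an adjusted p, 15107 to 34511 in the comparisons of states. The Neurod2 adjusted p in DESeq2 was 0.0172, within a range of 0.0172 to 0.885 over the alternatives run.

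Between anxious and less anxious mice 0 markers were called (0.00371%) and 2 had an unadjusted p under 0.05, Neurod2 above 0 and Isl1 below (4.74% of all genes, 2.48% above and 2.25% below), while DESeq2 called 0 (0.0361%). Between more anxious and anxious mice 0 were called (0 of all genes) and 1 had an unadjusted p under 0.05, Tbr1, above 0 (4.57% of all genes, 2.80% above and 1.77% below), while DESeq2 called 0 (0.139%). The 3 comparisons share mice. Of the 10 markers, 2 had no overlap between more and less anxious mice (10.3% of the 15890 genes with a mean of at least 1 CPM), Neurod2 from above (5.05%) and Calcrl from below (5.24%).

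By set, 4 of the 5 basolateral markers had a log2 difference above 0 between more and less anxious mice, with a median of 0.44, and 3 of the 4 central markers one below 0, with a median of -0.32, where the median over all genes was 0.0037. The values of some markers moved with the GC lean of the libraries. Transcripts of Slc17a7 and Neurod2 have 56.6% and 58.7% GC and those of Calcrl 38.7%. Over the 11 mice, their r with the GC lean was 0.828, 0.826 and -0.726. Lhx6 also has 56.6% GC, Tbr1 54.8% and Neurod6 41.9%, with r of 0.151, 0.337 and 0.00326. Slc17a6 has 47.7% GC, Prkcd 53.1%, Isl1 49.6% and Rspo2 47.2%, with r of -0.673, -0.308, -0.287 and 0.0247. The part of GC content in these values was not tested. The less anxious mice 3 and 12 had lower GC leans than any other mouse with a state. With the GC lean beside the first principal component, the log2 difference was -0.58 for Rspo2, 0.066 for Slc17a7, 0.46 for Neurod2, 0.59 for Tbr1, 0.040 for Neurod6, 0.33 for Slc17a6, -0.25 for Prkcd, -0.15 for Calcrl, -1.18 for Isl1 and 0.21 for Lhx6, and 0 markers were called. These 2 covariates had r = 0.705 with each other over the 11 mice, so their parts in this fit are hard to separate. With the GC lean in place of the first principal component, the basolateral values were -0.29 for Rspo2, 0.185 for Slc17a7, 0.37 for Neurod2, 0.69 for Tbr1 and 0.33 for Neurod6.

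**Figure D3:**
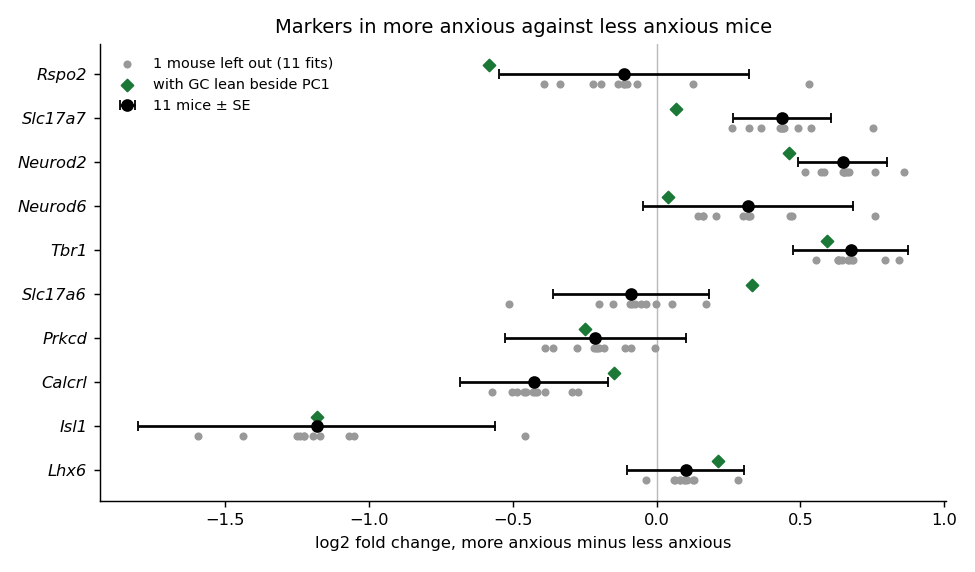
Log2 fold change of more anxious minus less anxious mice for each marker, with the fit over 11 mice as black points ± standard error, the 11 fits that each leave out a mouse as gray points and the fit with the GC lean beside the first principal component as green diamonds. Slc17a7, Neurod2, Neurod6 and Tbr1 stay above 0 throughout, and Prkcd, Calcrl and Isl1 stay below it. The Slc17a7 diamond lies at 0.066, and the Isl1 point at -0.46 is the fit without mouse 12.

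Over the 11 mice with a state, the basolateral markers did not vary as a block. The 10 pairs within the basolateral set had a median Pearson r of 0.214, with a range from -0.149 to 0.805, and the 6 pairs within the central set one of 0.00398, with a range from -0.0489 to 0.772. The 20 pairs between the sets had a median of 0.0524. No pair of the 45 passed at an adjusted p of 0.05 for Pearson's r (100000 permutations, two-sided), and 6 had an unadjusted p under 0.05.

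Rspo2 and Neurod6 had the highest value, r = 0.805 (permutation p = 0.0028, 0.063 adjusted) and rho = 0.882 (permutation p = 0.00063, 0.0283 adjusted). The r was 0.797 without mice 8 and 10, the farthest from the Rspo2 median, and 0.806 on residuals after the GC lean. Slc17a7 and Neurod2 had r = 0.792 (permutation p = 0.00459, 0.0688 adjusted) and rho = 0.564 (permutation p = 0.075, 0.422 adjusted), with r = 0.765 without mice 9 and 12. After the GC lean this r was 0.342. Rspo2 and Neurod2 had r = -0.149 (permutation p = 0.679, 0.991 adjusted) and rho = -0.2 (permutation p = 0.558, 0.895 adjusted), but r = 0.498 without mice 8 and 10.

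Calcrl had the lowest value with Neurod2 and a high one with Isl1. For Neurod2 and Calcrl, r was -0.795 (permutation p = 0.00173, 0.063 adjusted) and rho -0.764 (permutation p = 0.00856, 0.189 adjusted), with r = -0.815 without mice 3 and 12 and -0.503 after the GC lean. For Calcrl and Isl1, r was 0.772 (permutation p = 0.00761, 0.0856 adjusted) and rho 0.645 (permutation p = 0.0367, 0.282 adjusted). This r was 0.437 without mice 8 and 12 and 0.856 after the GC lean, where the adjusted permutation p was 0.0369. Prkcd, named for the same nucleus, had r = 0.338 with Calcrl (permutation p = 0.314, 0.739 adjusted) and rho = 0.236 (permutation p = 0.486, 0.895 adjusted), and its r with Isl1 was -0.0418 (permutation p = 0.904, 0.991 adjusted), with rho = 0.0818 (permutation p = 0.819, 0.922 adjusted). Without mice 4 and 8 these r were 0.22 and -0.12.

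**Figure D4:**
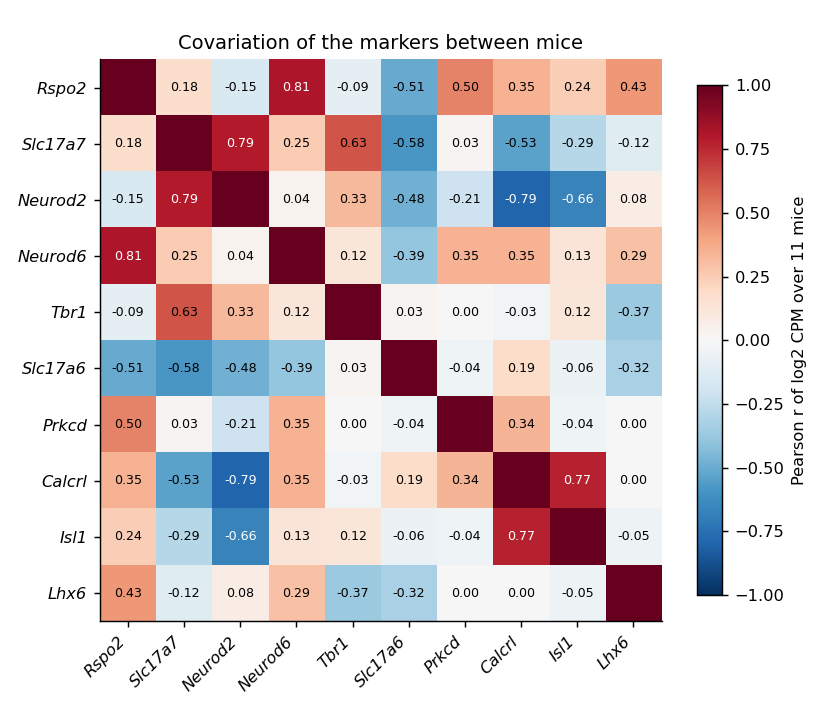
Pearson r of log2 CPM between each pair of markers over the 11 mice with a state, from -1 (blue) to 1 (red). Rspo2 with Neurod6 (0.81), Slc17a7 with Neurod2 (0.79) and Calcrl with Isl1 (0.77) are the highest values, and Neurod2 with Calcrl (-0.79) is the lowest.

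Each marker was set against 17 lists of genes for neighboring regions and other cell types and against the GC lean, 180 relations in all over the same 11 mice, of which 6 passed at an adjusted p of 0.05 for r, 2 of them for rho too, and 23 had an unadjusted p under 0.05. The highest r was that of Isl1 with the 9 striatal genes, r = 0.946 (permutation p = 4e-05, 0.0072 adjusted) and rho = 0.955 (permutation p = 3e-05, 0.0027 adjusted). Without mice 7 and 12, the farthest from the median of the list, r was 0.883, and it lay between 0.900 and 0.979 when any single mouse was left out. The summed CPM of the striatal genes was 559.7 in mouse 12, 372.7 in mouse 7, 352.2 in mouse 6 and 184.5 to 314 in the other 9 libraries.

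The striatal list holds the dopamine receptor Drd2, the adenosine receptor Adora2a, the phosphodiesterase Pde10a and Tac1, which neurons of the central nucleus also express in part. Among 15880 genes, those most like Isl1 in log2 CPM over the 11 mice were Prkch (r = 0.949), Rgs9 (r = 0.947) and Adora2a (r = 0.945), of which Rgs9 and Adora2a belong to the striatal list. Adora2a ran from 1.41 to 48.3 CPM and was highest in mouse 12, as were 8 of the 9 genes of the list. Isl1 also followed the 4 intercalated cell genes, with r = 0.818 (permutation p = 0.00112, 0.045 adjusted), rho = 0.764 (permutation p = 0.00855, 0.192 adjusted) and r = 0.648 without mice 7 and 12. With the oligodendrocyte genes it had r = 0.783 (permutation p = 0.00357, 0.0918 adjusted) and rho = 0.882 (permutation p = 0.00088, 0.0528 adjusted). Its r was 0.650 with the other central and striatal-type genes and 0.648 with the endothelial genes (adjusted permutation p = 0.281 and 0.295).

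**Figure D5:**
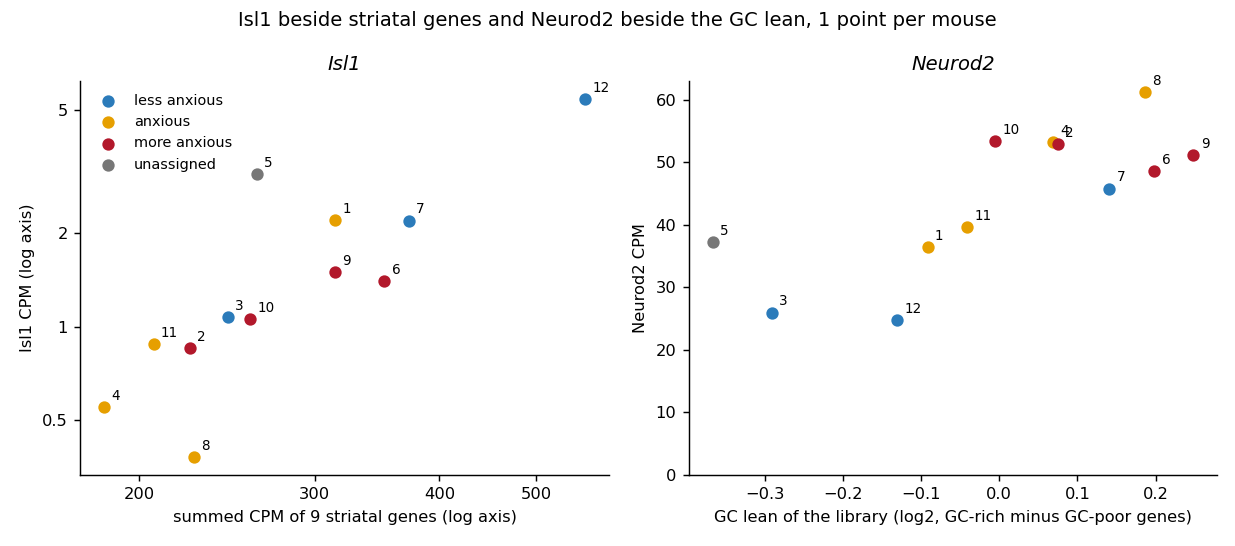
Left, CPM of Isl1 against the summed CPM of 9 striatal genes (both log axes), and right, CPM of Neurod2 against the GC lean of the library, with 1 point per mouse colored by state. Isl1 runs from 0.379 to 5.44 CPM with mouse 12 at the top. Mouse 5, not part of the r in the text, has 3.11 CPM of Isl1 at a striatal sum of 262.5 CPM. Neurod2 is lowest in mice 3 and 12, whose GC leans are -0.2905 and -0.1307.

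For the glutamatergic markers, Slc17a7 followed the 13 other pallial genes with r = 0.881 (permutation p = 0.00064, 0.0384 adjusted), rho = 0.945 (permutation p = 2e-05, 0.0027 adjusted) and r = 0.711 without mice 9 and 12. Tbr1 followed 6 genes that all neurons express, with r = 0.906 (permutation p = 0.00036, 0.0324 adjusted), rho = 0.673 (permutation p = 0.0273, 0.328 adjusted) and r = 0.833 without mice 9 and 10. The GC lean itself was followed by Slc17a7, with r = 0.828 (permutation p = 0.0015, 0.045 adjusted), rho = 0.718 (permutation p = 0.01645, 0.247 adjusted) and r = 0.632 without mice 3 and 12. Neurod2 followed it with r = 0.826 (permutation p = 0.00125, 0.045 adjusted), rho = 0.627 (permutation p = 0.04447, 0.445 adjusted) and r = 0.623 without those mice.

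The genes most like each marker over the 11 mice overlapped in 1 case. Etv6 was among the 3 nearest genes of both Rspo2 (r = 0.870) and Neurod6 (r = 0.906), with Vxn first for Rspo2 (r = 0.913) and Rai14 second for Neurod6 (r = 0.898). The 3 nearest of Slc17a7 were Gipc1, Dnlz and Lingo1 (r = 0.946, 0.945 and 0.944), and those of Neurod2 were Med26, Camta2 and Numbl (r = 0.961, 0.952 and 0.950). These 6 genes have between 56.1% and 61.8% GC in their transcripts. The first of the other lists were Incenp for Tbr1 (r = 0.948), Bend6 for Slc17a6 (r = 0.909), Kcnt2 for Prkcd (r = 0.899), Kif13a for Calcrl (r = 0.959) and Whrn for Lhx6 (r = 0.918). All are the highest values among 15880 genes, chosen for their size, and carry no test.

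None of the genes of the 17 lists was called between any states or by any behavior measure at an adjusted p of 0.05 by edgeR. Between more and less anxious mice, 10 of 13 other pallial genes had a log2 difference above 0 with a median of 0.19. The most abundant of them, Camk2a, Lypd1 and Sv2b, had log2 differences of 0.036, -0.22 and -0.091. Of 18 other genes of central and striatal-type GABAergic neurons 13 were below 0, with a median of -0.21, and 2 had an unadjusted p under 0.05 (8.83% of all genes), Dlx2 above 0 and Tac2 below. Gad1, Penk and Sst, the most abundant, had log2 differences of -0.10, -0.57 and 0.42.

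The 9 striatal genes were all below 0, with a median of -0.60, and 2, Rasd2 and Gpr6, had an unadjusted p under 0.05 (3.62% of all genes in that direction). The summed level was 246, 373 and 560 CPM in the less anxious mice and 225 to 352 CPM in the more anxious mice, so that the groups overlap. The 4 intercalated cell genes were below 0 too (median -0.37). For the medial nucleus 6 of 8 genes were above 0 (median 0.093), for the claustrum and endopiriform nucleus 3 of 4 (median 0.24), for the thalamus 3 of 6 (median -0.012), for the hypothalamus 5 of 10 (median 0.089) and for the hippocampus 3 of 7 (median -0.091). For the choroid plexus 2 of 8 were above 0 (median -0.36). Kcnj13 and Clic6, both below 0, had an unadjusted p under 0.05 in edgeR (3.62% of all genes in that direction). Kcnj13, a potassium channel gene, averaged 4.23 ± 1.01 CPM in the less anxious mice (SD, n = 3) and 0.459 ± 0.497 CPM in the more anxious mice (SD, n = 4). Its log2 difference was -3.26 (standard error 0.77, edgeR adjusted p = 0.260), and that of Clic6 was -0.77 (standard error 0.32, edgeR adjusted p = 0.504). For the anterior pituitary 2 of 6 were above 0 (median -1.54). Of the 6 genes of interneurons from the medial ganglionic eminence, the origin of Lhx6 cells, 3 were above 0 (median 0.038).

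Genes of neighboring regions differed widely in level within each list. Of the 10 hypothalamic genes, Trh averaged 26.7 CPM (up to 64.0 in mouse 2) and Avp 4.17 CPM (up to 21.2 in mouse 6), followed by Fezf1 at 2.38, Nkx2-1 at 2.13 and Hdc at 1.77 CPM. The other 5, Oxt, Agrp, Pmch, Nr5a1 and Hcrt, averaged 0.549, 0.397, 0.213, 0.0807 and 0.0586 CPM. Of the 6 thalamic genes, Ntng1 averaged 35.7, Rora 31.2, Rgs16 7.45, Tcf7l2 5.71, Lef1 3.61 and Gbx2 0.232 CPM. Of the 8 choroid plexus genes, Ttr averaged 2.52 CPM and reached 5.62 CPM in mouse 7. Pituitary Prl reached 31.9 CPM in mouse 4 and averaged 3.56 CPM. For the other cell types, all 5 astrocyte genes (median -0.28), all 5 oligodendrocyte genes (median -0.14), all 5 microglial genes (median -0.21) and all 6 endothelial genes (median -0.44) were below 0 in more against less anxious mice, with 5 of the 6 genes of all neurons above 0 (median 0.17). The part of these in the values of the markers was not tested.

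The behavior scores give a comparison that does not rest on the states. For each score, the slope of a marker is its log2 difference per standard deviation of the score over the mice. In edgeR, 0 of 10 markers were called for any of the 7 scores, where the share of all genes called was 0.00742% for time in the light, 0 for distance in the light, open-arm time and total entries, and 0.0150%, 0.0111% and 0.0223% for the social ratio at 3, 5 and 10 min. DESeq2 called 1, Slc17a6 with the social ratio over 10 min (0.580% of the 19122 genes to which it gave an adjusted p). It called 0 for the other 6 scores, against 0.0688% of such genes for light time, 0.127% for light distance and 0.181% for time on open arms. For entries the share was 0.244%, and for the social ratio at 3 and 5 min it was 0.986% and 0.197%. Unadjusted p-values under 0.05 were found for Neurod2 with the distance in the light (1 of 10, against 5.80% of all genes), Neurod6 with open-arm time (1 of 10, against 5.84%), Neurod6 and Lhx6 with total maze entries (2 of 10, against 6.97%) and Slc17a6 with the social ratio at 3, 5 and 10 min (1 of 10 each, against 7.65%, 6.56% and 8.05%). For time in the light, none had one (3.55%).

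With total entries, Neurod6 had a slope of -0.36 (standard error 0.093, edgeR unadjusted p = 0.00177 and adjusted p = 0.576). The slope lay between -0.38 and -0.33 whichever mouse was left out and was -0.36 with the GC lean as covariate. Mice 2 and 1, with the fewest entries at 6 and 15, had 41.6 and 41.3 CPM, and mouse 12, with the most at 42, had 23.5 CPM. Mouse 9, with 22 entries, had the highest level at 44.9 CPM. Rspo2 had a slope of -0.26 (standard error 0.15, edgeR adjusted p = 0.793). Lhx6 had one of -0.16 (standard error 0.068, edgeR adjusted p = 0.685), and -0.11 without mouse 2.

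For the social ratio, which divides direct by distant time with a stranger mouse, Slc17a6 had slopes of 0.27 at 3 min (standard error 0.097, 10 mice), 0.25 at 5 min (standard error 0.076) and 0.27 at 10 min (standard error 0.068, edgeR unadjusted p = 0.00132 and adjusted p = 0.346). The adjusted p by DESeq2 at 10 min was 0.049, within a range of 0.049 to 0.999 over the alternatives run. Over these alternatives, which include the GC lean as covariate, the slope at 10 min lay between 0.12 and 0.32. The slopes rested on mouse 3, which had the highest ratio at 10 min, 2.62, where the other 10 mice lay between 0.495 and 1.58, and the highest Slc17a6 level, at 126 CPM. Without mouse 3, the slopes per standard deviation of the remaining mice were 0.14, 0.095 and 0.12, and the unadjusted p at 10 min was 0.154 by edgeR. Without mouse 7, whose 3 min ratio of 0.236 was the lowest, the slope at 3 min was 0.15. Neurod2 had a slope of -0.23 with the distance in the light (standard error 0.10), and -0.12 with the GC lean as covariate.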

How the data were processed

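Amygdala mRNA of 12 mice was sequenced as stranded TruSeq libraries in 1 run (75 bp, single-end). Where needed, the authors used cutadapt to trim, and they ran STAR on mm10 to assess quality, Salmon for transcript abundances and tximport to sum these by gene. They deposited estimated counts, whole numbers without normalization, and 0 values were not whole. Annotation release, versions and use of strand are not given in the sources used here. Names and coordinates came from GENCODE M21 (GRCm38), which held 99.1% of the genes.

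Genes with at least 10 reads over the 11 mice with a state were fitted in edgeR 4.0.16 (R 4.3.3) by the robust quasi-likelihood test with TMM factors, all states in 1 fit with PC1 (of DESeq2's variance-stabilized values) as covariate. Behavior slopes had no covariate. P-values were adjusted over all genes, with 0.05 as threshold. Standard errors are the log2 difference divided by the square root of F. DESeq2 1.42.0, other scalings, filters and covariates, and leaving out each mouse were alternatives, and those using the GC lean and the list relations were added after seeing the data. Correlations used log2 CPM (prior count 2) and the mean z-score of a list. The named genes were drawn from the 10 markers, for each list the 3 most abundant genes and any counted among 5 or fewer, and for each marker the 3 genes with the highest r. Other list genes named were chosen after their values were seen. The markers and lists were chosen with earlier results of these data known. Each sample is a separate mouse.

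Mir7055, Gm45072 and Gm27953 lie inside Slc17a7, Slc17a6 and Lhx6 on the same strand, with 1, 11 and 30 counts over the 12 libraries. The count table names mice by number, and the sample titles carry the same numbers.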

Additional observations from a re-analysis of the deposited data

Results flagged for a closer look

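Within the groups of 4 mice, the gap of the highest or lowest library to its neighbor was compared with the whole range of the group for 10 markers in 2 groups, and 1 of the 20 exceeded Dixon's 95% critical value. Lhx6 was at 31.1 CPM in mouse 1, where the other anxious mice lay between 22.5 and 23.9 CPM (Dixon's ratio 0.84). Chance alone gives about 1 such value in 20 groups.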

How the results depend on the processing

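No marker was called by edgeR between states or by behavior under any of the alternatives run. DESeq2 called 1 marker for any difference (Tbr1), 1 between more and less anxious mice (Neurod2) and 1 for the 10 min social ratio (Slc17a6), and 0 in the other comparisons. Of the 10 log2 differences between more and less anxious mice, 7 kept their sign in all alternatives. Leaving out a mouse gave -0.39 to 0.53 for Rspo2 (0.13 without mouse 10, and -0.58 with the GC lean beside PC1), -0.51 to 0.17 for Slc17a6 (0.054 without mouse 9) and -0.038 to 0.28 for Lhx6. Slc17a6 was at 0.29 with the GC lean in place of PC1 and 0.33 with both, and the cause was not tested. Among the 45 pairs, 2 passed over all 12 mice, 3 with scaling by pan-neuronal genes, under which the median log2 difference of all genes was -0.072, 1 on residuals after the GC lean and 0 to 2 when a mouse was left out. Calls over all genes between more and less anxious mice, 12, were 300 by DESeq2, 25 without a filter, 2 at a mean of 1 CPM, 2 without robust estimates, 3 with pan-neuronal scaling, 3 without covariate, 0 with the GC lean and 0 to 24 without a mouse. For any difference, 2, they were 205, 9, 0, 1, 7, 0, 0 beside PC1 and 0 to 4, and 22 with the states as an ordered number. The 1 call between anxious and less anxious mice became 12 by DESeq2 and 0 at a mean of 1 CPM, without covariate and with the GC lean, and the 0 between more anxious and anxious mice became 48 by DESeq2 and 2 with the GC lean in place of PC1. With 3 or 4 mice a state and the states cut from these data, the counts of Isl1, 14 to 206 a library, are the least precise of the markers.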
